A study of Mus musculus with 24 samples.

Results

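Hepa1-6 is a mouse hepatocellular carcinoma line that keeps many features of fetal hepatocytes. In this experiment Hepa1-6 cells with a guide RNA against B2m (sgB2m), the gene of the MHC class I light chain, were compared with Hepa1-6 cells with a non-targeting guide (sgNT). Each group had 3 bulk RNA-seq libraries, which are 6 of the 24 libraries of the series. The other libraries carry guides with the same labels in MC38 colon, LLC1 lung and AKR esophageal carcinoma cells. All cells grew in DMEM with fetal bovine serum, and both groups carried a guide, so no unedited parental library entered the comparison. The labels do not say whether edited cells were clones or pools, or whether the 3 libraries of a group were separate cultures. So p-values here weigh differences only against library-to-library spread, which may be technical. A gene entered the test when 3 or more of the 6 libraries had a deposited log2 value of 3.5 or higher, which held for 14910 of 26146 genes. The third highest log2 value was 3.53 in the genes nearest inside that limit and 3.48 in those nearest outside it.

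Differentiated hepatocytes secrete most plasma proteins, build lipoproteins, make urea and bile acids, and oxidise drugs with cytochromes P450. Cholesterol synthesis genes are driven together by the transcription factor SREBP2 when sterols in the cell are low. Immediate early genes encode transcription factors such as FOS, JUN and EGR1 that are switched on within minutes of growth factor, stress or cytokine signals, before new protein is made. YAP and TAZ are coactivators that respond to cell shape and tension, and ATF4 is the transcription factor of the integrated stress response.

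The 6 libraries held 25023681 to 35409413 counted reads. Libraries of the same group correlated at 0.983 to 0.986 over log2 values and libraries of different groups at 0.970 to 0.973. B2m counted 2599, 2672 and 2451 in the sgB2m libraries and 6669.6, 6569.8 and 6495 in the sgNT libraries (normalised counts), so the transcript was reduced in all 3 edited libraries and not absent. The log2 fold change of B2m came to -1.35 ± 0.04 (SE, adjusted p = 7.52e-13). Gene-level counts cannot tell edited transcripts from intact ones. All 11 hepatocyte markers checked (among them Alb, Apob, Hnf4a and Foxa2) had a mean normalised count of at least 63 in the higher group. Their summed count was 453455 to 456708 in sgB2m and 495556 to 502048 in sgNT, so RNA of liver genes was present. Markers of other epithelia were present too. Of 19 bile duct markers 12 reached that mean, with a sum of 32602 to 34080 in sgB2m and 28281 to 28495 in sgNT. Of 16 intestinal markers 8 reached it, with a sum of 42884 to 44093 against 43009 to 43539. Of 15 T and NK cell markers 13 had no row in the table, and the summed count of the other 2 was at most 20 in any library. Of 20 macrophage and myeloid markers 10 had no row, among them Adgre1, Clec4f and C1qa. The summed count of the other 10 was 1859 to 2030 in sgB2m and 1093 to 1119 in sgNT, carried mostly by Cd14 and Cd68. Of 15 endothelial markers 6 had no row, among them Cdh5 and Kdr, and the sum was 840 to 924 in sgB2m and 822 to 931 in sgNT. Of 16 stellate cell and fibroblast markers 8 had no row, among them Lrat, Pdgfrb and Col1a2, and the sum was 703 to 920 against 486 to 593. Of 20 squamous markers 16 had a row, with a sum of 16075 to 16901 in sgB2m and 9565 to 10164 in sgNT, carried mostly by Sprr1a, whose rise was not called with the spread pooled over all 24 libraries (adjusted p = 0.322). The part of these markers in the results below was not tested.

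Values below are normalised counts, and log2 fold changes are sgB2m minus sgNT on the log2(count + 1) scale, which understates the change of low genes. In limma's moderated test on these log2 values, with Benjamini-Hochberg adjustment over all 14910 genes, 2775 genes rose (18.6% of those tested) and 2862 fell (19.2%) at an adjusted p under 0.05. Most of these changes were small, with a median absolute log2 fold change of 0.34 among called genes. The larger changes leaned upward: 408 genes rose at least 2-fold (2.74%) and 167 fell at least 2-fold (1.12%), while 43 rose and 12 fell at least 8-fold. Separate ranges in the 2 groups were seen for 7097 genes (47.6%), so non-overlap alone is common in this comparison. The median over all tested genes was -0.01. The counts for gene lists below are read against these shares. Lists and members were chosen with earlier results of these data known, so their shares describe the lists and are not independent tests. Of 55 lists and 61 gene families drawn up for this comparison, the plot of calls per list shows 26.

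**Figure D1:**
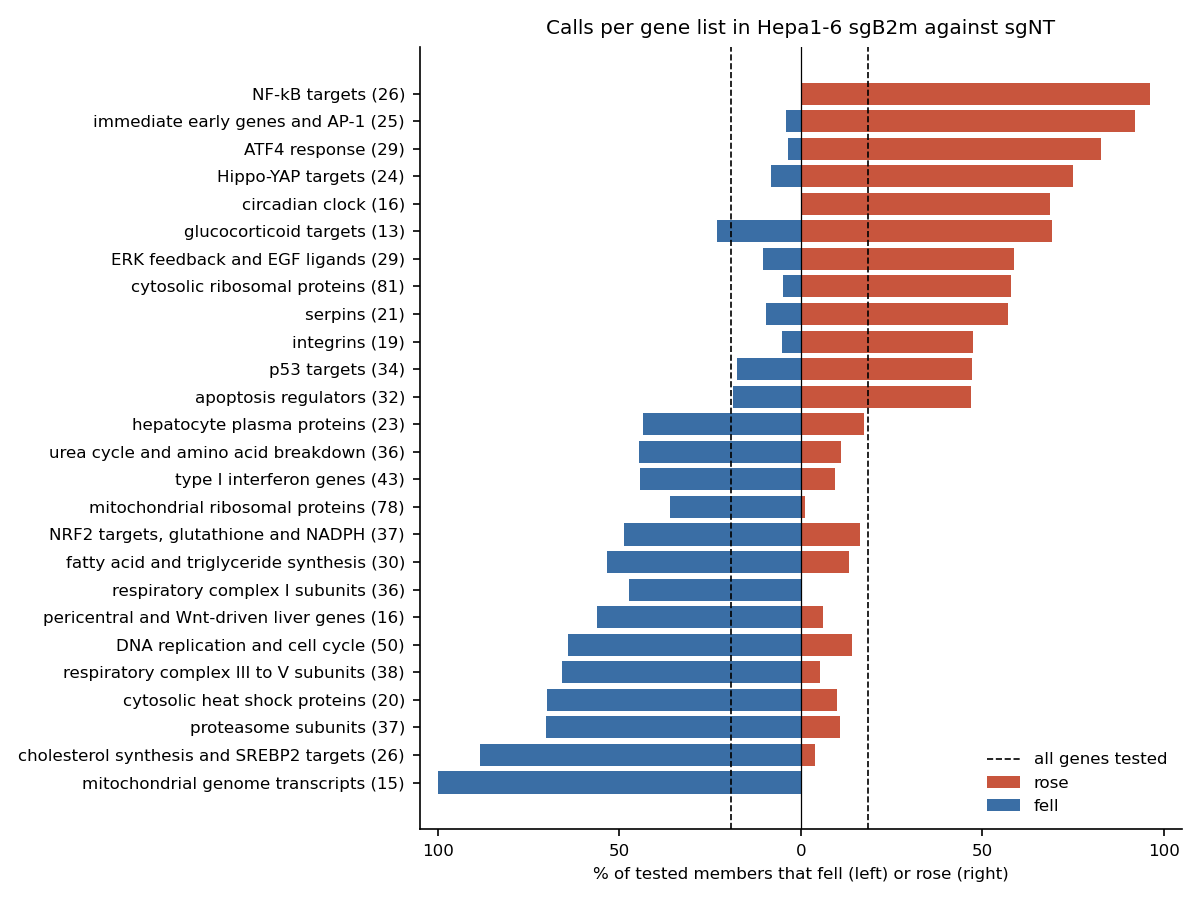
Share of tested members of 26 gene lists that rose (right, red) or fell (left, blue) in Hepa1-6 sgB2m against sgNT at an adjusted p under 0.05, with the number tested in brackets. Dashed lines mark the shares over all 14910 genes tested (18.6% rose, 19.2% fell). Immediate early, ATF4 and YAP target genes lie far to the right, and mitochondrial genome transcripts, cholesterol synthesis and proteasome genes far to the left.

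The genes with the highest fold changes were of mixed function. Clca3a1, a secreted chloride channel regulator of epithelia, counted 174, 174 and 145 in the sgB2m libraries and 0, 0 and 0 in the sgNT libraries. This is at least 58.5-fold higher against a floor of 3 reads per library. Clca3a1 passed the level limit only through the sgB2m libraries. Its neighbour Clca3b (chromosome 3) counted 4032, 3775 and 4269 in the sgB2m libraries and 109, 75.4 and 81.8 in the sgNT libraries. The 2 are close paralogs, so reads may have been split between them, and both stood high in every sgB2m library. Sprr2e, a cornified envelope protein with near-identical Sprr2 relatives, counted 314, 333 and 349 in the sgB2m libraries and 17.3, 16.4 and 19.4 in the sgNT libraries. Selp, the adhesion receptor P-selectin, rose 13.9-fold (241 ± 16.7 against 16.6 ± 3.14, mean ± SD, n = 3). Rgs16, a brake on G protein signalling, rose 10.8-fold (2871 ± 38.2 against 267 ± 39.5). Nos2, the inducible nitric oxide synthase, counted 95.1, 94.2 and 104 in the sgB2m libraries and 5.46, 4.37 and 0 in the sgNT libraries. It passed the level limit only through the sgB2m libraries, and its log2 fold change of 4.92 was 4.07 without the third sgNT library. Fosb, Saa3, Lcn2, Ccl20, Ccl2 and Cxcl1 complete the 12 with the highest fold changes among genes whose mean log2 value reached 6 in the higher group.

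The 12 genes with the lowest fold changes under the same level rule included several liver genes. Ces1c, a carboxylesterase secreted into plasma, counted 27.5, 0 and 0 in the sgB2m libraries and 126, 98.3 and 99.6 in the sgNT libraries. It was at 0 in 2 of the 3 edited libraries, so the size of its change is poorly fixed. The log2 fold change was -5.15, was -6.76 without the first sgB2m library and -3.13 with a pseudocount of 8, and limma's robust moderation gave an adjusted p of 0.0586. Notum, a secreted enzyme that inactivates Wnt ligands, counted 11.6, 5.07 and 16.9 in the sgB2m libraries and 107, 113 and 104 in the sgNT libraries, a log2 fold change of -3.29, or -2.64 with a pseudocount of 8. Avpr1a, the vasopressin receptor of hepatocytes, counted 52.8, 41.5 and 6.77 in the sgB2m libraries and 276, 235 and 217 in the sgNT libraries. Without the third sgB2m library its log2 fold change was -2.34 in place of -3.22. Apoa1, the main protein of HDL, counted 21.1, 15.2 and 4.52 in the sgB2m libraries and 80.0, 68.8 and 65.6 in the sgNT libraries, a log2 fold change of -2.52, or -1.93 without the third sgB2m library. Cyp2c68, a cytochrome P450, had the highest count of the 12, with 721, 803 and 819 in the sgB2m libraries and 2563, 2820.5 and 2596 in the sgNT libraries. Its paralog Cyp2c67 fell too (10.9 ± 4.71 against 72.6 ± 4.52, mean ± SD; log2 fold change -2.72, or -2.13 with a pseudocount of 8), and the counting could split reads among the Cyp2c genes. Akr1c20, an aldo-keto reductase, Keg1, Iyd, Arhgap36, Scd4 and Nrp1 complete the 12. Scd4 counted 173, 26.3 and 28.2 in the sgB2m libraries and 221, 188 and 214 in the sgNT libraries, so the groups did not overlap but 1 edited library lay near the control range. Its log2 fold change was -2.88 without that library and its fold with it was 4.01, and with limma's robust moderation the adjusted p was 0.155.

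**Figure D2:**
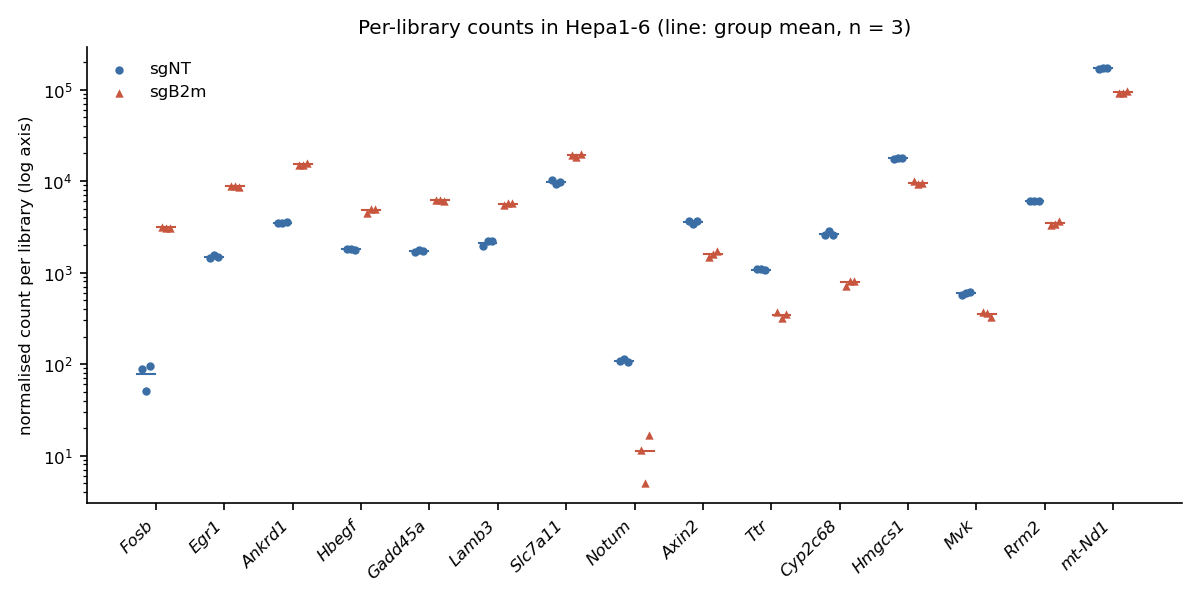
Normalised count (log axis) of 15 genes in each of the 3 sgNT libraries (blue circles) and 3 sgB2m libraries (red triangles) of Hepa1-6, with a line at each group mean. The groups do not overlap for any of the 15 genes shown.

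Immediate early genes and AP-1 members rose almost as a block. Of 25 tested members 23 rose and 1 fell, with a median log2 fold change of 0.87 against -0.01 over all genes, and 12 rose at least 2-fold. Fosb, an AP-1 subunit (chromosome 7, 19302696 to 19310051, minus strand), counted 3140.2, 3101 and 3099 in the sgB2m libraries and 89.1, 51.4 and 94.7 in the sgNT libraries, with a log2 difference of 5.34 ± 0.17 (SE, adjusted p = 1.51e-12). Every edited library stood far above every control library. Egr1, a zinc finger factor induced by serum and mitogens, counted 8839, 8812 and 8665 in the sgB2m libraries and 1441, 1548 and 1491 in the sgNT libraries, with a log2 difference of 2.55 ± 0.04 (SE, adjusted p = 4.39e-16). Fos, the founding AP-1 subunit, counted 3111, 3360.1 and 3384 in the sgB2m libraries and 730.3, 641 and 808 in the sgNT libraries. Ier3, a stress-induced regulator of survival, counted 7266, 7129.6 and 6817 in the sgB2m libraries and 1551, 1472 and 1468 in the sgNT libraries. Cebpd rose 5.37-fold, Nr4a2 3.89-fold, Atf3 3.35-fold and Jun 2.66-fold. Myc, which drives growth and ribosome production, counted 9901, 10150.3 and 10211 in the sgB2m libraries and 4633, 4777 and 4733 in the sgNT libraries, and these groups did not overlap either. Klf2, a shear-responsive factor, was the 1 member that fell (406 ± 38.0 against 556 ± 24.1, mean ± SD), and Srf, a factor that binds the CArG box, did not pass the test (1099.9 ± 72.6 against 1029 ± 55.2).

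As examples of promoters with a kappaB match, 3 members with large rises are shown. Printed are the 250 bases upstream of the RefSeq start (GRCm38.p6, given 5′ to 3′ on the strand of the gene). All 3 hold a match, against 7 of the 17 rising members with a window, so they do not stand for the list. A role of this site in the rises was not tested. Capitals mark matches to the consensus kappaB site.
Fosb, chr7:19310046-19310295, minus strand: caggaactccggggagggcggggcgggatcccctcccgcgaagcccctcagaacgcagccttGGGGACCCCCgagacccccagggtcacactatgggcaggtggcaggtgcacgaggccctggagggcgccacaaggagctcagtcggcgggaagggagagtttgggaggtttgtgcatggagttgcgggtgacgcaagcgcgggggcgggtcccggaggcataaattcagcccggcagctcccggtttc
Fos, chr12:85473640-85473889, plus strand: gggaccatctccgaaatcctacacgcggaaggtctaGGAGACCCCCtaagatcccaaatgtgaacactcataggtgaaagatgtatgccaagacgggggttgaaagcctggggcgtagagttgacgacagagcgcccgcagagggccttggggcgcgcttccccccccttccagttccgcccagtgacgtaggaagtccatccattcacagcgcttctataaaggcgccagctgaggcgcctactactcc
Ier3, chr17:35821463-35821712, plus strand: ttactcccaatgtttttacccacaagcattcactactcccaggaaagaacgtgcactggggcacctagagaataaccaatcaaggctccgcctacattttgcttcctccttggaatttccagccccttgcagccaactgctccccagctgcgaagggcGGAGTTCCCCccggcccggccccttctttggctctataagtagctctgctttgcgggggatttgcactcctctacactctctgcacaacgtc

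Motifs were searched on both strands in the RefSeq windows of 250 bases before to 50 after each start, with overlaps between motifs left in. Of the 23 immediate early members that rose, 17 had a window by symbol. A kappaB consensus match was in 7 of the 17 genes (41.2%), against 9.55% of all 27025 genes with a window. The CArG box consensus was in 2 (11.8% against 1.81%), and the AP-1 motif TGANTCA in 0 (against 8.97%). These are letter matches, not measured binding.

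Genes of ERK signalling moved with them. Of 29 tested feedback regulators and EGF family genes 17 rose and 3 fell (median 0.35). Among ligands, Hbegf counted 4499, 4902 and 5011 in the sgB2m libraries and 1789.7, 1822 and 1751 in the sgNT libraries, with a log2 difference of 1.42 ± 0.047 (SE, adjusted p = 2.8e-12). Areg, another EGF receptor ligand, rose 2.42-fold, Btc 1.44-fold and Tgfa 1.25-fold, while Nrg1, a ligand of ERBB3 and ERBB4, fell (2097 ± 56.7 against 2547 ± 161, mean ± SD). The receptor Egfr rose 1.53-fold (7382 ± 119 against 4829.5 ± 39.8), and Erbb2 did not pass the test (1056 ± 138 against 1223 ± 127). Among feedback inhibitors, the phosphatases Dusp1, Dusp5, Dusp6 and Dusp10 rose 2.23-, 1.83-, 1.35- and 1.79-fold, and Spry4 rose 1.35-fold. The ETS factors Etv4 and Etv5, often read as markers of ERK output, did not pass the test (0.08 and -0.10 log2). Lif, an IL-6 family cytokine, counted 1523, 1659 and 1712 in the sgB2m libraries and 615, 625 and 604 in the sgNT libraries, and its control and edited values did not overlap. Btc, Tgfa and Nrg1 lost their calls when the spread was pooled over the 24 libraries of all lines (adjusted p = 0.0784, 0.342 and 0.41).

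Targets of YAP and TAZ rose in the same libraries. Of 24 tested list members 18 rose and 2 fell (median 0.51). Ankrd1, a widely used reporter of YAP activity, counted 15007, 15148 and 15725 in the sgB2m libraries and 3467, 3480.5 and 3548 in the sgNT libraries, with a log2 difference of 2.13 ± 0.03 (SE, adjusted p = 2.02e-16). Cyr61, a secreted matricellular protein, counted 4864, 5196 and 5153 in the sgB2m libraries and 1721, 1778 and 1832 in the sgNT libraries, and its relative Ctgf counted 15763, 15586 and 15766 in the sgB2m libraries and 6874, 6695 and 6558 in the sgNT libraries. All 3 stood above the control range in every edited library. Nuak2, Amotl2 and Axl rose 2.39-, 1.70- and 1.42-fold. Of the pathway's own regulators, Yap1 did not pass the test (2964 ± 88.0 against 3042 ± 88.8, mean ± SD), Wwtr1, the gene of TAZ, rose 1.17-fold, and Tead1, their DNA-binding partner, rose 1.46-fold. Birc5, listed here and also a mitotic gene, fell (-0.34 log2). Several members, such as Ankrd1 and Cyr61, are also known to respond to serum and AP-1, and lists overlap in such genes. Nuak2 and Tead1 lost their calls with the pooled spread (adjusted p = 0.0755 and 0.381).

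Laminin chains rose, and integrins, collagens and ADAM proteases held more members that rose than fell. Of 6 laminin chains tested 5 rose. Lamb3, a chain of an epithelial basement membrane laminin, counted 5518, 5825 and 5699.8 in the sgB2m libraries and 1968, 2186 and 2238 in the sgNT libraries. It stood above the control range in every edited library, while Lamb2 did not pass the test (0.08 log2). Of 19 integrin subunits 9 rose and 1 fell: Itgb3 rose 4.51-fold from a low level (143 ± 34.1 against 30.4 ± 3.32, mean ± SD), Itga2 2.08-fold and Itgav 1.55-fold, and Itgb1 was the member that fell (-0.07 log2, adjusted p of up to 0.103 when 1 library was left out). Of 17 collagen chains 5 rose and 0 fell. Among the basement membrane collagens Col4a1 and Col4a2 rose 1.41- and 1.48-fold, and Col8a1 rose 3.77-fold (744 ± 35.6 against 197 ± 2.73). Of 14 ADAM and ADAMTS genes 6 rose and 2 fell. Those that rose include the aggrecan-cleaving Adamts4 (2.87-fold) and Adam8 (2.31-fold). Lamb3 and Itga2 lost their calls with the pooled spread (adjusted p = 0.0692 and 0.25), where 5 of the 16 integrins in the fit rose.

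Most serpins, a family of protease inhibitors, rose. Of 21 tested serpins 12 rose, 8 of them at least 2-fold, and 2 fell (median 0.75). Plat, a plasminogen activator and thus a target of this family, counted 3596, 3523 and 3936 in the sgB2m libraries and 1475, 1426 and 1414 in the sgNT libraries. It rose too, with no overlap between groups. Several intracellular clade B serpins rose, among them Serpinb6b (965 ± 27.4 against 338 ± 24.1, mean ± SD), Serpinb9b (306 ± 10.9 against 95.5 ± 25.7) and Serpinb8 (348 ± 28.0 against 142 ± 6.39), though near-identical copies in this cluster make single-gene values uncertain. The 2 that fell are liver plasma inhibitors: Serpind1, heparin cofactor II, counted 104, 88.2 and 89.2 in the sgB2m libraries and 330.1, 327 and 291 in the sgNT libraries, and Serpinf2, the inhibitor of plasmin, counted 543, 592 and 630.1 in the sgB2m libraries and 964, 1014 and 1018 in the sgNT libraries. With the pooled spread, whose fit holds 12 of the 21 serpins, 7 rose and 0 fell, and Serpind1 and Serpinb6b lost their calls (adjusted p = 0.0973 and 0.0626).

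Genes of the ATF4 response rose, mostly by small steps. Of 29 tested members 24 rose and 1 fell (median 0.29). Ppp1r15a, which reverses the phosphorylation of eIF2alpha, counted 4271, 4343 and 4452 in the sgB2m libraries and 1284, 1289 and 1280.0 in the sgNT libraries, with a log2 difference of 1.76 ± 0.044 (SE, adjusted p = 9.34e-14). Slc7a11, the cystine importer, counted 19282, 18161 and 19669 in the sgB2m libraries and 10365, 9179 and 9758 in the sgNT libraries. Aldh1l2 rose 2.81-fold, Chac1, which breaks down glutathione, 2.65-fold, and the secreted stress hormone Gdf15 2.32-fold. The amino acid synthesis genes Asns and Phgdh rose 1.22- and 1.25-fold. Atf4 itself differed by only 0.09 log2 (adjusted p = 0.0159), with an adjusted p of up to 0.0579 when 1 library was left out, and Ddit3, the gene of CHOP, did not pass the test (1602 ± 122 against 1453 ± 50.2, mean ± SD). Gdf15 lost its call with the pooled spread (adjusted p = 0.139).

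Chaperone and proteasome genes went the other way. Of 20 cytosolic heat shock genes 14 fell and 2 rose (median -0.21). Dnajb1, a cochaperone of HSP70, counted 989, 829.9 and 927 in the sgB2m libraries and 1363, 1418 and 1295 in the sgNT libraries, and Dnaja1 counted 6142, 6145 and 6452 in the sgB2m libraries and 8993, 8990.3 and 9218 in the sgNT libraries. Hsp90aa1, the inducible HSP90, fell 1.24-fold. Of 37 proteasome subunits 26 fell and 4 rose (median -0.22). The regulatory particle gene Psmd6 counted 1870.2, 1814 and 1871 in the sgB2m libraries and 2653, 2838 and 2700.0 in the sgNT libraries, and Psmc5 fell 1.42-fold. The 4 that rose were the immunoproteasome subunits Psmb8 (1.55-fold) and Psmb9 (1.47-fold), with Psmd8 and Psmd10. Psmb9 had an adjusted p of 0.0768 without the first and 0.0772 without the third sgB2m library. With the pooled spread Psmb8 and Psmb9 lost their calls (adjusted p = 0.358 and 0.069). In the endoplasmic reticulum 12 of 26 genes fell, led by Sec61b (-0.46 log2) and Calr (-0.46), and 6 rose. Those that rose include the sensors Ern1 (1.57-fold) and Atf6 (1.52-fold) and the factor Xbp1 (1.51-fold). Of 37 NRF2 target and glutathione genes 18 fell and 6 rose, with Gstm1 and Prdx1 at 1.53- and 1.46-fold lower.

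Clock, growth arrest and cell death genes formed a further set of rises. Of 16 clock genes 11 rose and 0 fell (median 0.40). Rora and Nr1d1, nuclear receptors that activate and repress Arntl, counted 386 ± 46.7 against 166 ± 14.6 and 1326 ± 44.5 against 664 ± 34.2 (mean ± SD), and both rose. Arntl itself rose 1.39-fold. Of 34 p53 targets 16 rose and 6 fell. Gadd45a, a growth arrest gene, counted 6234, 6168 and 6024 in the sgB2m libraries and 1697, 1744 and 1727 in the sgNT libraries, with a log2 difference of 1.83 ± 0.039 (SE, adjusted p = 1.71e-14), while Bax, a killer of the BCL2 family, fell 1.20-fold. The core target Cdkn1a differed by 0.14 log2 (adjusted p = 0.0343), with an adjusted p of up to 0.144 when 1 library was left out, and Trp53 itself did not pass the test (0.02 log2). Of 32 apoptosis genes 15 rose and 6 fell. The BH3-only killers Bmf, Bcl2l11, Pmaip1 and Bbc3 rose 1.83-, 1.69-, 1.62- and 1.60-fold. The survival gene Bcl2 rose as well (392 ± 38.4 against 176 ± 38.2, mean ± SD), as did Birc3 and Cflar. These death and survival genes thus rose together, whereas Bad, Bak1 and Bax, which promote apoptosis, fell (-0.45, -0.29 and -0.27 log2). Bad lost its call without an intensity trend (adjusted p = 0.0868).

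**Figure D3:**
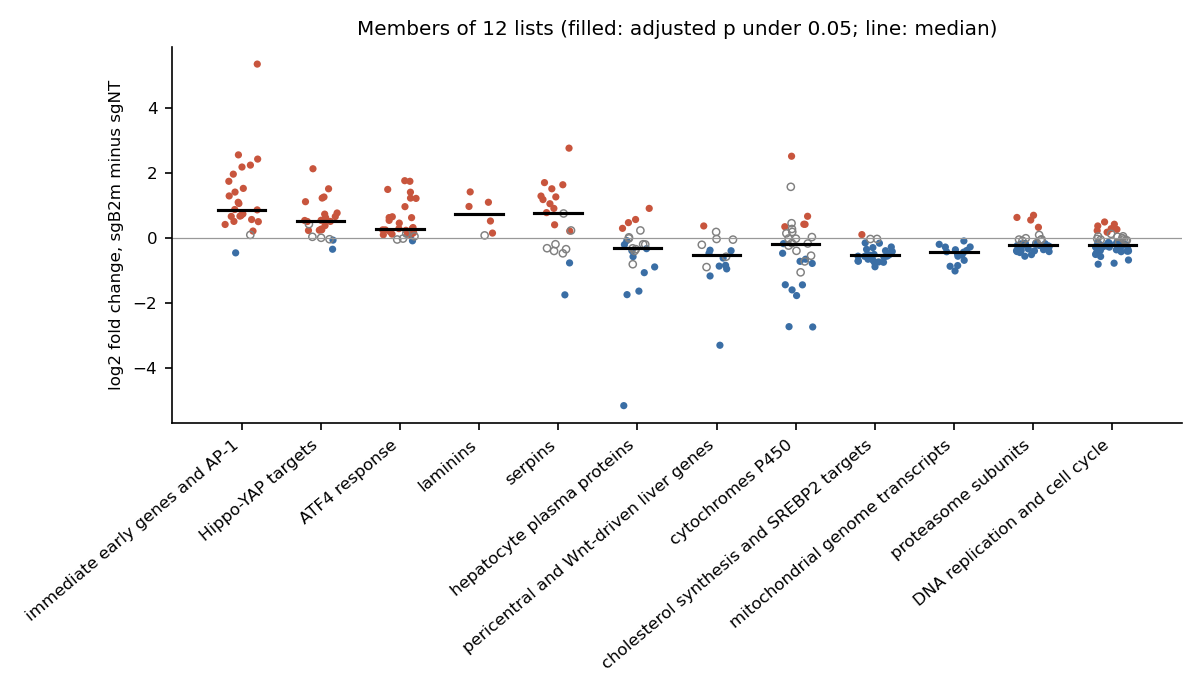
Log2 fold change (sgB2m minus sgNT) of every tested member of 12 lists in Hepa1-6. Filled points passed an adjusted p under 0.05, open points did not, and the line is the list's median. Fosb at 5.34 and Ces1c at -5.15 are the outermost points.

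Sterol synthesis genes fell along nearly the whole pathway. Of 26 tested members 23 fell and 1 rose, with a median log2 fold change of -0.53. None of the falls reached 2-fold. Hmgcs1, the synthase that commits acetyl units to the pathway (chromosome 13, 119690379 to 119708260, plus strand), counted 9889, 9346 and 9556 in the sgB2m libraries and 17512, 17796 and 17800.4 in the sgNT libraries, with a log2 difference of -0.88 ± 0.026 (SE, adjusted p = 9.97e-13). The groups did not overlap. Mvk, mevalonate kinase, counted 367, 358 and 325 in the sgB2m libraries and 566, 592 and 614 in the sgNT libraries, and Idi1, the isomerase of the isoprenoid step, counted 3004, 3024 and 3015 in the sgB2m libraries and 5045, 5104 and 5009.7 in the sgNT libraries. Late steps fell as well, such as Sqle, squalene epoxidase (1.43-fold), and Hsd17b7, a ketoreductase of sterol demethylation (1.66-fold). Insig1, which holds SREBP in the endoplasmic reticulum, fell 1.61-fold. Srebf2, the gene of the driving factor, did not pass the test (8953 ± 263 against 9147 ± 438, mean ± SD).

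The 250 bases upstream of the RefSeq start of 3 of these genes are shown for their repeated CCAAT boxes, which are in capitals as CCAAT or its reverse complement.
Hmgcs1, chr13:119690101-119690350, plus strand: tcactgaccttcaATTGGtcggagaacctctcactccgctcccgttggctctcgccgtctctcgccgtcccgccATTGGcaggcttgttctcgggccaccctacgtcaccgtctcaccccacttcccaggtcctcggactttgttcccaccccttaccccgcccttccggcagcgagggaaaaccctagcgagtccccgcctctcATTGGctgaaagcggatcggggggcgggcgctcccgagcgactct
Mvk, chr5:114444019-114444268, plus strand: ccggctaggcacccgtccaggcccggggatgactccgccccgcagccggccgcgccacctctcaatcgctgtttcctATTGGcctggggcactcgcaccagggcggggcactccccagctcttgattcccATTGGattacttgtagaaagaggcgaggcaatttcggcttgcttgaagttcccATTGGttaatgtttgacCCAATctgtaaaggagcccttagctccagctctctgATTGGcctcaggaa
Idi1, chr13:8885356-8885605, plus strand: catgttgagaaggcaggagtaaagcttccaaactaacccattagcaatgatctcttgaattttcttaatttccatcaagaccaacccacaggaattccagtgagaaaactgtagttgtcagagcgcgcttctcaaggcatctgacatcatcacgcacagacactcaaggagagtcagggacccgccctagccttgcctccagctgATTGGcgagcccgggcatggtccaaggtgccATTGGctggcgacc

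Of the 23 members that fell, 16 had a RefSeq window, and 15 of the 16 (93.8%) held CCAAT on either strand, against 41.1% of all 27025 genes with a window. The sterol element TCACNCCAC was in 1 of the 16 (6.25% against 1.44%), in Hmgcs1. A short motif such as CCAAT is common by its length alone, and no binding was measured here.

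Fatty acid and triglyceride synthesis fell in part. Of 30 tested genes 16 fell and 4 rose. Fasn, fatty acid synthase, counted 16473, 15967 and 16822 in the sgB2m libraries and 26558, 26579 and 26712 in the sgNT libraries. Elovl2, which elongates polyunsaturated fatty acids, counted 426, 439 and 432 in the sgB2m libraries and 992, 1057 and 1067 in the sgNT libraries, and Gpam, the first step of triglyceride synthesis, counted 2559, 2294 and 2731 in the sgB2m libraries and 5319, 5252 and 5309 in the sgNT libraries. The last 2 fell over 2-fold and their groups did not overlap. Acly and Acaca fell 1.45- and 1.31-fold. Dgat2, the last step of triglyceride synthesis, rose instead (342 ± 69.6 against 191 ± 18.1, mean ± SD), and so did Lpin2 (1.40-fold).

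Among plasma protein genes more fell than rose. In bulk RNA fewer cells of a type and less RNA per cell cannot be told apart. Of 23 tested plasma proteins 10 fell and 4 rose (median -0.32). With quantile normalization 8 fell and 7 rose, and with the pooled spread, whose fit holds 6 of them, 0 fell and 1 rose. Ttr, the thyroid hormone carrier transthyretin, counted 372, 321 and 351 in the sgB2m libraries and 1080.4, 1092 and 1063 in the sgNT libraries, with a log2 difference of -1.63 ± 0.084 (SE, adjusted p = 5.47e-10). Afm, a vitamin E carrier, fell 3.34-fold (42.6 ± 9.45 against 144 ± 26.6, mean ± SD), Ambp 2.09-fold and Ahsg, fetuin A, 1.85-fold. Alb, albumin, counted 112044, 113087 and 115174 in the sgB2m libraries and 146402, 148791 and 150396 in the sgNT libraries, a smaller but separated fall (-0.39 log2). Its sign turned with quantile normalization (0.19 log2), which sets the values of the most abundant genes by their rank. The copper carrier Cp and the thyroxine carrier Serpina7 rose 1.48- and 1.88-fold. The fetal albumin relative Afp differed by 0.03 log2, which no longer passed the test under 11 of the 15 alternatives, with an adjusted p of up to 0.162 when 1 library was left out. Apob, the protein of VLDL, counted 10659, 10355 and 10586 in the sgB2m libraries and 16933, 15098 and 16061 in the sgNT libraries, and Apoe did not pass the test (0.04 log2). With the pooled spread Apob lost its call (adjusted p = 0.601), with the same fold change and an SE of 0.764 in place of 0.0345. That SE takes in spread among libraries of the other lines, where this fit set no level limit.

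Among metabolic enzymes of hepatocytes more fell than rose. Of 31 cytochromes P450 11 fell and 5 rose. Besides the Cyp2c genes, Cyp11a1, the side-chain cleavage enzyme, fell 3.02-fold (22.7 ± 9.63 against 66.1 ± 7.96, mean ± SD), while Cyp1a1, an AhR target, did not pass the test (-0.02 log2). Of 36 urea cycle and amino acid genes 16 fell and 4 rose. Cps1, the entry enzyme of the urea cycle, counted 1048, 1021 and 1007 in the sgB2m libraries and 1445, 1377 and 1635 in the sgNT libraries. Glud1, glutamate dehydrogenase, fell 1.31-fold. Of 19 sugar and glycogen genes 8 fell, led by Ppp1r3c, which targets a phosphatase to glycogen (2.06-fold), and 4 rose, among them the mitochondrial Pck2 (1.41-fold). Slco1b2, a bile acid importer, counted 0, 0 and 0 in the sgB2m libraries and 23.6, 31.7 and 25.9 in the sgNT libraries. This is at least 8.47-fold lower against a floor of 3 reads per library. Slco1b2 passed the level limit only through the sgNT libraries. Cyp11a1 lost its call with the pooled spread (adjusted p = 0.0739). There 3 of the 14 cytochromes P450 in the fit fell and 2 rose, and 4 of the 14 sugar and glycogen genes fell.

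Transcription factors of hepatocyte identity moved both ways. Of 21 tested 5 rose and 4 fell, close to the shares over all genes. Tbx3, also a Wnt target in liver, fell 1.82-fold, and Nr5a2, a nuclear receptor of bile acid and cholesterol metabolism, rose 1.75-fold. Hnf4a rose 1.19-fold (8555 ± 284 against 7165 ± 321, mean ± SD), and Foxa2 and Cebpa did not pass the test (0.06 and 0.10 log2). Of 16 fetal and oncofetal genes 8 rose and 4 fell. Sox4, a progenitor and tumour factor, counted 6601, 6554 and 6896 in the sgB2m libraries and 2600.0, 2807 and 2452 in the sgNT libraries, and Sox9, a factor of bile duct and progenitor cells, counted 923, 1073 and 985 in the sgB2m libraries and 539, 474 and 579.7 in the sgNT libraries. Of 13 tested bile duct markers 5 rose and 2 fell. Spp1, osteopontin, rose 4.03-fold, and Krt7 fell 1.14-fold. With the pooled spread 1 of the 13 liver factors in the fit rose and 1 fell. Of the 10 fetal and oncofetal genes in the fit 4 rose and 1 fell.

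More Wnt target genes of the liver fell than rose. Genes around the central vein are switched on by Wnt and beta-catenin. Of 16 tested 9 fell and 1 rose (median -0.52), and with the pooled spread 4 of the 8 in the fit fell. Axin2, a feedback inhibitor and general Wnt target, counted 1492, 1578 and 1719.7 in the sgB2m libraries and 3649, 3415 and 3674 in the sgNT libraries, with a log2 difference of -1.17 ± 0.055 (SE, adjusted p = 2.17e-10). Tbx3 counted 3846, 3960.0 and 4074 in the sgB2m libraries and 7198, 7103 and 7309 in the sgNT libraries and Nkd1 counted 826, 821 and 805 in the sgB2m libraries and 1333, 1519 and 1542 in the sgNT libraries. Each of these stood below the control range in every edited library. Rnf43, which removes Wnt receptors, fell 1.53-fold, Glul, glutamine synthetase, 1.39-fold and the receptor Lgr5 1.30-fold. Ctnnb1, the gene of beta-catenin, did not pass the test (13987 ± 399 against 13789 ± 309, mean ± SD), and Ccnd1, listed as a target, rose 1.29-fold. In the wider Wnt list of 22 ligands, receptors and regulators 4 rose and 5 fell, 1 and 2 of them at least 2-fold. That list as a whole lay near the background, and not all of its called members are named here.

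The messenger and ribosomal RNAs of the mitochondrial genome fell. All 15 of 15 passed the test, with a median of -0.44. With the mitochondrial transfer RNA genes counted in, 31 genes of this genome were tested, of which 19 fell and 3 rose (median -0.28). The ribosomal RNA mt-Rnr1 counted 7431, 7498 and 8108 in the sgB2m libraries and 15272, 15952 and 15211 in the sgNT libraries, and mt-Nd1, a complex I subunit, counted 92009.6, 91696 and 95697 in the sgB2m libraries and 165692, 171643 and 172958 in the sgNT libraries. The smallest fall was that of mt-Co1, a complex IV subunit (-0.09 log2), whose call was lost under 4 of the 15 alternatives, such as robust moderation (adjusted p = 0.16). Mitochondrial transcripts took 4.10%, 4.16% and 4.32% of reads in the sgB2m libraries and 4.97%, 5.18% and 5.13% in sgNT. This share is also read as a sign of RNA or cell quality, and its part in other results was not tested. Nuclear genes of the respiratory chain fell as well, with medians of -0.16 for complex I and -0.19 for complexes III to V. Of 36 complex I subunits 17 fell and 0 rose, of 38 subunits of complexes III to V 25 fell and 2 rose, and of 78 mitochondrial ribosomal proteins 28 fell and 1 rose. Ndufa5 fell 1.51-fold, the largest fall among the nuclear complex I genes. Cytosolic ribosomal protein genes moved the other way: 47 of 81 rose and 4 fell, by a median of only 0.10, and without the intensity trend 14 rose. Of 13 host genes of small nucleolar RNAs 9 rose, led by Snhg12 (983 ± 189.8 against 512 ± 46.7, mean ± SD) and Snhg5 (1243 ± 34.0 against 673 ± 67.6), and 1 fell.

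Proliferation genes fell. Of 50 replication and cell cycle genes 32 fell and 7 rose (median -0.21). Rrm2, the inducible subunit of ribonucleotide reductase, counted 3299, 3411 and 3636 in the sgB2m libraries and 5993, 6085 and 5978 in the sgNT libraries, with a log2 difference of -0.80 ± 0.04 (SE, adjusted p = 3.14e-10). Tyms, thymidylate synthase, fell 1.60-fold, Mki67 1.40-fold and the replicative helicase gene Mcm5 1.42-fold. Those that rose include the inhibitor Cdkn2b (1.41-fold), Rb1 (1.34-fold) and the G1 cyclin Ccnd1. Top2a, a mitotic topoisomerase, did not pass the test (26673 ± 736 against 25721 ± 483, mean ± SD).

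Interferon-linked genes moved both ways. Of 43 type I interferon genes 19 fell and 4 rose (median -0.20). With the spread pooled over all 24 libraries 11 of the 41 in the fit fell. Oas1a, a sensor of double-stranded RNA, counted 1177, 1143 and 1142 in the sgB2m libraries and 1882, 1911 and 2002 in the sgNT libraries, and the membrane protein Ifitm3 fell 1.45-fold. Stat2, a transcription factor of interferon signalling, fell 1.24-fold, and Irf9 did not pass the test (0.05 log2). Among 17 interferon-gamma GTPases 8 rose and 3 fell. Gvin1 counted 2521, 2295 and 2702 in the sgB2m libraries and 1001, 1039 and 969 in the sgNT libraries, while Irgm1 counted 1748, 1692 and 1852 in the sgB2m libraries and 3131, 3074 and 3047 in the sgNT libraries. Gbp genes are close paralogs with low counts here, such as Gbp5 (103 ± 25.1 against 34.0 ± 17.8, mean ± SD), whose call was lost without an intensity trend or with pooled spread (adjusted p up to 0.0639), so their values are uncertain. In the antigen presentation list 8 of 16 genes rose and 4 fell. Nlrc5, the transactivator of MHC class I, rose 2.19-fold (714 ± 40.8 against 327 ± 39.6) and the peptide transporter gene Tap1 1.31-fold. Of 15 heavy chain and related genes 5 rose and 1 fell, the last being H2-Q1 (277 ± 9.10 against 727 ± 22.5), which has close paralogs. The classical heavy chain gene H2-D1 rose 1.36-fold, so the light chain and this heavy chain moved in opposite directions. Oas1a and H2-Q1 lost their calls with the pooled spread (adjusted p = 0.411 and 0.405).

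NF-kB targets and chemokines mostly rose, while 3 small lists of immune ligands held members that moved both ways. In the NF-kB target list 25 of 26 members rose and 0 fell, and of 14 chemokines 10 rose and 1 fell. Of 15 checkpoint and co-stimulatory ligands 5 rose and 4 fell (33.3% and 26.7%). Of 9 NK cell ligands 4 rose and 3 fell (44.4% and 33.3%). Of 6 TNF superfamily genes 3 rose and 1 fell (50% and 16.7%). Over all genes 18.6% rose and 19.2% fell. Tnfsf15, a TNF family ligand, counted 341, 284 and 370.4 in the sgB2m libraries and 52.7, 54.6 and 67.2 in the sgNT libraries, and Ltb, lymphotoxin beta, counted 804, 775 and 692 in the sgB2m libraries and 179, 139.9 and 204 in the sgNT libraries. Il1rn, the antagonist of the IL-1 receptor, counted 636, 735 and 727 in the sgB2m libraries and 174, 212 and 113 in the sgNT libraries. None of these 3 had overlapping groups. The oncostatin M receptor Osmr rose 2.20-fold and the shared receptor Il6st 1.57-fold, and the acute-phase gene Hp, haptoglobin, rose 3.72-fold (1858 ± 99.9 against 499 ± 25.6, mean ± SD). Cd274, the gene of PD-L1, counted 369.8, 357 and 355 in the sgB2m libraries and 172, 139.9 and 169 in the sgNT libraries, and Pvr, a ligand of DNAM-1 and TIGIT, rose 1.91-fold. Tnfsf4, the OX40 ligand, fell 1.84-fold, and Csf1r, the CSF1 receptor and a myeloid marker, fell 1.77-fold. Csf1r lost its call with the pooled spread (adjusted p = 0.265).

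These changes were also tested against the sgB2m and sgNT libraries of the other lines. The change in Hepa1-6 minus the mean change of MC38, LLC1 and AKR was tested in the 12674 genes that passed the level limit in all 4 tables. It was higher in 2668 genes (21.1%) and lower in 2594 (20.5%). Of the immediate early list 24 of 25 were higher in Hepa1-6, and of the ATF4 list 27 of 28. Of the cholesterol list 24 of 25 were lower, and of the mitochondrial transcripts 15 of 15. The median change of the cholesterol genes was -0.53 in Hepa1-6, 0.14 in MC38, 1.43 in LLC1 and 0.23 in AKR, so the mean of the other lines includes a large positive value from LLC1. For the immediate early genes the medians were 0.87, 0.02, -0.61 and -0.10 in the same order. For the 28 ATF4 genes tested in all lines they were 0.27, 0.10, -0.49 and -0.40, and for mitochondrial transcripts -0.44, 0.09, 0.06 and 0.03. Liver lists entered this test unevenly: 3 of the 23 plasma proteins did, against 27 of the 36 urea cycle and amino acid genes.

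**Figure D4:**
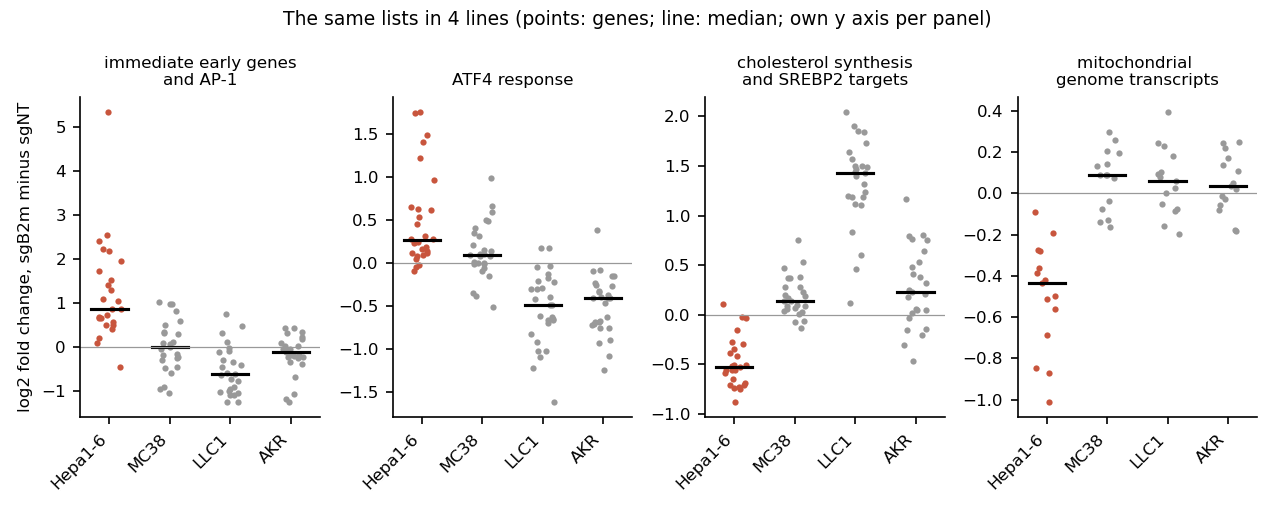
Log2 fold change (sgB2m minus sgNT, separate y axis per panel) of the members of 4 lists that were tested in all 4 lines, one point per gene, with the median as a line and Hepa1-6 in red. The medians of Hepa1-6 are the highest of the 4 lines for immediate early and ATF4 genes and the lowest for cholesterol and mitochondrial transcripts.

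Liver plasma cascades held members that moved both ways, as did all genes tested (18.6% rose, 19.2% fell). Of 18 coagulation and fibrinolysis genes 5 rose and 5 fell (27.8% each), a small list not far from those shares. Those that rose act on the cell surface or on plasminogen: Plaur, the urokinase receptor, rose 1.48-fold, F3, tissue factor, 1.66-fold and Serpine2 2.07-fold, besides Plat. Of 19 complement genes 6 rose and 2 fell (31.6% and 10.5%). C3, the central component, counted 25883, 24942 and 24478 in the sgB2m libraries and 14133, 14259.6 and 14208 in the sgNT libraries, while the inhibitor Cfi counted 153, 187 and 209 in the sgB2m libraries and 446, 424 and 465 in the sgNT libraries and C4bp, another inhibitor, fell 1.59-fold. Of 14 acute-phase genes 7 rose and 2 fell (50% and 14.3%). Saa3, an inflammatory apolipoprotein, counted 113, 108 and 97.1 in the sgB2m libraries and 4.55, 0 and 5.67 in the sgNT libraries, and Lcn2, a siderophore-binding protein, counted 3166, 3019 and 2965 in the sgB2m libraries and 153, 119 and 125 in the sgNT libraries. Saa3 passed the level limit only through the sgB2m libraries and had 12 reads in all over the sgNT libraries, so its fold is imprecise, with a log2 fold change of 4.14 without the second sgNT library. With the pooled spread 0 of the 10 coagulation and fibrinolysis genes in the fit fell. Of the 17 complement genes in the fit 2 rose and 0 fell.

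Lipoprotein genes followed the plasma proteins in part. Of 22 tested 9 fell and 5 rose. Apof, a minor apolipoprotein, fell 3.21-fold. Mttp, which loads lipid onto APOB, fell 1.22-fold, whereas Apoc2, the activator of lipoprotein lipase, rose 1.76-fold (a call lost without an intensity trend or with robust moderation, adjusted p up to 0.1245) and Angptl8, an inhibitor of that lipase, 2.32-fold (188 ± 23.8 against 80.5 ± 11.2, mean ± SD). Of 8 UDP-glucuronosyltransferases, which conjugate drugs and bilirubin, 4 fell and 0 rose, with Ugt2b35 at 998 ± 76.8 against 1655 ± 104. The Ugt1a genes share exons, so their separate values are uncertain. With the pooled spread 1 of the 15 lipoprotein genes in the fit fell and 0 rose. Of the 5 UDP-glucuronosyltransferases in the fit 0 fell, and Apof lost its call (adjusted p = 0.152).

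Among KLF and SP factors 50% rose and 16.7% fell, and among nuclear receptors 40% and 6.67%, against 18.6% and 19.2% over all genes. Of 18 KLF and SP factors 9 rose and 3 fell. Klf6 counted 15361, 15191 and 15327 in the sgB2m libraries and 8154, 8258 and 8611 in the sgNT libraries, and Klf10 and Klf5 rose 1.59- and 1.53-fold. Sp4 fell 2.95-fold (326 ± 167 against 854 ± 48.7, mean ± SD), a call that was lost without an intensity trend or with robust moderation (adjusted p up to 0.0947), while Sp1 and Sp3 rose 1.16- and 1.18-fold. Of 30 nuclear receptors 12 rose and 2 fell. Nr5a2, a regulator of bile acid genes, counted 688, 638 and 736 in the sgB2m libraries and 427, 390.1 and 359 in the sgNT libraries, and Nr2f2, the orphan receptor COUP-TFII, fell 1.27-fold. Of 13 glucocorticoid targets 9 rose and 3 fell. Tsc22d3, the glucocorticoid-induced leucine zipper, rose 1.70-fold, but Fkbp5, a standard target, fell 1.34-fold, and the receptor gene Nr3c1 rose 1.13-fold.

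Guidance genes of the semaphorin family rose in 38.1% and fell in 14.3%, against 18.6% and 19.2% over all genes. The TGF-beta, activin and BMP list stood at 37.9% and 17.2%. Of 21 semaphorins, plexins and neuropilins 8 rose and 3 fell. Sema3c counted 2298, 2501 and 2594 in the sgB2m libraries and 1019, 904 and 981 in the sgNT libraries, and the membrane-anchored Sema7a counted 318, 269.5 and 254 in the sgB2m libraries and 98.2, 113 and 88.2 in the sgNT libraries. The neuropilins, receptors of secreted semaphorins, moved in opposite directions, with Nrp1 at 19.1 ± 8.99 against 67.5 ± 14.6 and Nrp2 at 5412 ± 201 against 3169.8 ± 109 (mean ± SD). In the TGF-beta, activin and BMP list 11 of 29 rose and 5 fell. The ligand Tgfb1 rose 1.68-fold and the receptor Tgfbr2 1.44-fold, while the coreceptor Tgfbr3 and the matrix protein Tgfbi fell 2.03- and 1.97-fold. Igfbp3, which binds IGF, counted 22362, 23027 and 22921 in the sgB2m libraries and 14836, 14773 and 14697 in the sgNT libraries, and the insulin signalling adaptor Irs1 fell 1.45-fold.

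Several other lists held members that moved both ways, as did all genes tested (18.6% rose, 19.2% fell). Of 209 solute carriers 52 rose and 42 fell (24.9% and 20.1%). Of 44 RAB GTPases 10 rose and 11 fell (22.7% and 25%). Both lie near the shares over all genes. Of 38 fatty acid oxidation genes 7 rose and 12 fell (18.4% and 31.6%), and 16 of 30 synthesis genes fell. Of the 38 tested hypoxia and glycolysis genes 15 rose and 12 fell (39.5% and 31.6%). Of 15 Notch genes 4 rose and 2 fell (26.7% and 13.3%). Of 308 Zfp zinc finger genes 72 rose and 28 fell (23.4% and 9.09%), with a median of 0.08. Median fold changes by chromosome lay between -0.04 and 0.03 on the autosomes and X.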

How the data were processed

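RNA-seq libraries of total RNA were strand-specific and paired-end, per the labels. The authors deposited log2 values per gene, 1 table per cell line. STAR, DESeq2, FastQC 0.11.5 and the mm10 build are named in the submitters' processing notes, and the counter, annotation and strand setting are not given in the sources used here. The deposited log2 values equal log2(count / size factor + 1), since whole reads (within 0.05) came back for all values. The 3 sgB2m libraries held 25023681 to 27585360 reads and the 3 sgNT libraries 25976291 to 35409413. Size factors were set within each line, so lines were compared only through their own differences.

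Groups came from the library names in the sample labels. Differences were tested on the log2 values with limma 3.58.1 (R 4.3.3, statmod 1.5.0), with an intensity trend and Benjamini-Hochberg adjustment over 14910 genes. Called means an adjusted p under 0.05, and adjusted p-values throughout come from limma. The difference from the other lines was a contrast in 1 limma fit of all 24 libraries. The method was tested on simulated data. Named genes were the targeted gene, the 12 highest and 12 lowest called genes with separate groups and a higher-group mean of log2 6 or more, the 4 largest called members of each list, the 8 highest and 8 lowest differences from the other lines, and list members with a role of their own. A few genes of these lists enter the counts but are not reported here by name. The members and lists were chosen with earlier results of these data known. Alternatives changed the filter, pseudocount, moderation, scaling, block, pooled spread or libraries used.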

Additional observations from a re-analysis of the deposited data

Results flagged for a closer look

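The 8 highest and 8 lowest differences between Hepa1-6 and the mean of MC38, LLC1 and AKR are given here, with B2m. The 8 and 8 were picked among genes that passed limma's contrast across lines (adjusted p under 0.05), so their number is not a result. B2m passed it too. Values are the log2 fold change in Hepa1-6 minus that mean. The higher genes were Fosb (5.61), Saa3 (5.52), Nos2 (5.38), Lcn2 (3.85), Cxcl2 (3.84), Ccl2 (3.60), Cxcl1 (3.14) and Aspa (3.04), which encodes aspartoacylase. The lower ones were Scd4 (-3.74), Nrp1 (-1.90), Hmgcs1 (-1.88), Hacd4 (-1.77), Arnt2 (-1.77), Ppbp (-1.76), Idi1 (-1.67) and Thbs1 (-1.66). B2m differed by 0.33. In Hepa1-6 alone Scd4, Arnt2 and Ppbp changed by -2.005, -0.61 and -1.10. Over the alternatives Hmgcs1 ran from -0.91 to -0.86, Idi1 from -0.77 to -0.74 and Thbs1 from -0.35 to -0.30. Nrp1 ran from -2.18 to -1.51 and Hacd4 from -1.18 to -0.74. Where the fall in Hepa1-6 is the smaller value, the rest of the difference is a rise in the mean of the other lines. Each line has its own sgNT libraries. Saa3 and Nos2 passed the level limit in Hepa1-6 only through the sgB2m libraries. Their change in Hepa1-6 ran from 4.14 to 5.51 (Saa3) and from 4.07 to 5.41 (Nos2) when 1 sgNT library was left out, so these differences are imprecise. With the spread pooled over the 24 libraries the Hepa1-6 falls of Arnt2 and Ppbp did not pass (adjusted p = 0.445 and 0.18).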

How the results depend on the processing

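The count of genes that rose was 2118 to 2830 over the 15 alternatives and the count that fell 2028 to 3228. Among genes that fell at least 2-fold the count dropped from 167 to 109 with the stricter filter (log2 of at least 5) and to 109 with the spread pooled over all 24 libraries, both of which test fewer genes. Leaving out 1 library gave 2382 to 2504 genes that rose, 2289 to 2619 that fell, 322 to 406 that rose at least 2-fold and 121 to 194 that fell at least 2-fold. Genes differing from the other lines numbered 4808 to 5300.

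Replicate numbers gave no sign of pairing: deviations of equally numbered libraries from their group means correlated at 0.0343, -0.00873 and 0.0146. This correlation runs over all tested genes, low ones included, so it cannot show that no libraries were paired. With the replicate number as a block 2763 genes rose and 2826 fell, and 5441 of the 5637 calls were shared.

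Immediate early genes that rose numbered 22 to 23, cholesterol genes that fell 22 to 23, ATF4 genes that rose 19 to 25 and mitochondrial transcripts that fell 13 to 15. Plasma proteins that fell numbered 0 to 10 and those that rose 1 to 7, the lowest of each with the pooled spread, whose fit holds 6 of the 23. Of 222 named genes that were called 190 kept the call under all 15 alternatives and 32 lost it under at least 1, most often with the pooled spread (26). Alb was 0.19 in place of -0.39 with quantile normalization, the 1 reversed sign among the named genes. The median over all genes shifted by -0.02 with quantile normalization and -0.03 with median centring. Low counts limit the folds of Clca3a1, Saa3, Nos2, Slco1b2, Ces1c, Notum and Cyp2c67, which a pseudocount of 8 changed by more than 1.5 times.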
